A study of Vitis vinifera with 36 samples.

Results

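Muscat Superior and Victoria, 2 cultivars of grape (Vitis vinifera), were compared in the summer crop at the onset of veraison, stage E-L 35 of the modified Eichhorn-Lorenz scale. The compared libraries were chosen by their labels for cultivar, crop and stage. They number 6 of the 36 libraries in the series, 3 of each cultivar. The series also holds E-L 36 and E-L 38 (harvest ripeness) and a winter crop of the same cultivars, in 12 groups of 3. All vines were 7 years old, were grafted on a rootstock described as unknown, and grew in southern China in 2014 under a rain shelter. For the summer crop, both cultivars were pruned and treated with hydrogen cyanamide, a bud-breaking agent, in February, and reached veraison around June. For the winter crop they were pruned again in August, stripped of leaves by hand and treated with hydrogen cyanamide at the terminal bud. RNA came from the whole pericarp (skin and flesh) of deseeded berries, and each replicate was a sample of 50 berries. The labels call the replicates biological, without saying whether they were separate vines or plots, so the p-values measure the spread between these samples.

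At veraison a grape berry stops accumulating acid, softens, takes up hexose sugars and, in coloured cultivars, begins to lay down anthocyanins in the skin. Anthocyanins are made from phenylalanine through the phenylpropanoid and flavonoid routes, and Myb transcription factors switch on their last steps. Softening involves expansins and wall-modifying enzymes, while thaumatin-like proteins and chitinases become the main soluble proteins of ripe berries. Victoria is a white-berried table grape.

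Expected counts summed to 15.33 to 18.61 megacounts per Victoria library and to 13.53 to 14.01 megacounts per Muscat Superior library. Victoria libraries listed 23204 to 23569 genes and Muscat Superior libraries 22451 to 22662. The 10 genes with the most reads held 6.3% to 7.35% of the counts in Victoria and 13.17% to 13.68% in Muscat Superior. Levels are given as CPM, counts scaled to a library of 1 megacount after TMM normalization, in the order of replicates 1, 2 and 3, and means carry the SD over 3 replicates. A floor of 3 reads, which covers counting error only, corresponded to 0.161 to 0.222 CPM of the unscaled library totals. The files pair no gene with a name. Gene families were therefore followed through 18 lists of locus identifiers recalled from published grape families, whose identity was not checked against an annotation of this build. Of 228 loci written, 224 were listed and 204 had enough reads to be tested. Sums over a list run over all its listed loci. Each locus is called by its identifier and its list, and markers of seed, skin, vascular or photosynthetic tissue were not analysed here.

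A gene was called when its adjusted p (edgeR's quasi-likelihood test, Benjamini-Hochberg over all 19736 genes tested) was below 0.05. Between the cultivars 8806 genes were called, or 44.6% of those tested. Muscat Superior was higher in 4387 (22.2%) and lower in 4419 (22.4%). The median log2 fold change, always Muscat Superior minus Victoria, was -0.02. Among the called genes 3729 (18.9% of those tested) differed at least 2-fold, 1324 higher and 2405 lower. On the log2(FPKM + 1) scale, which has no correction for library composition, the median of all genes moved to -0.23 and the share of calls that were higher went from 49.8% to 22.4%. With a pseudocount of 0.1 the median was -0.29 and the share 23.3%, so small differences are to be read against those medians. The CPM of the 3 and 3 libraries did not overlap in 12397 genes (62.8%). In pericarp RNA, fewer cells of a type and less RNA per cell cannot be told apart.

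**Figure D1:**
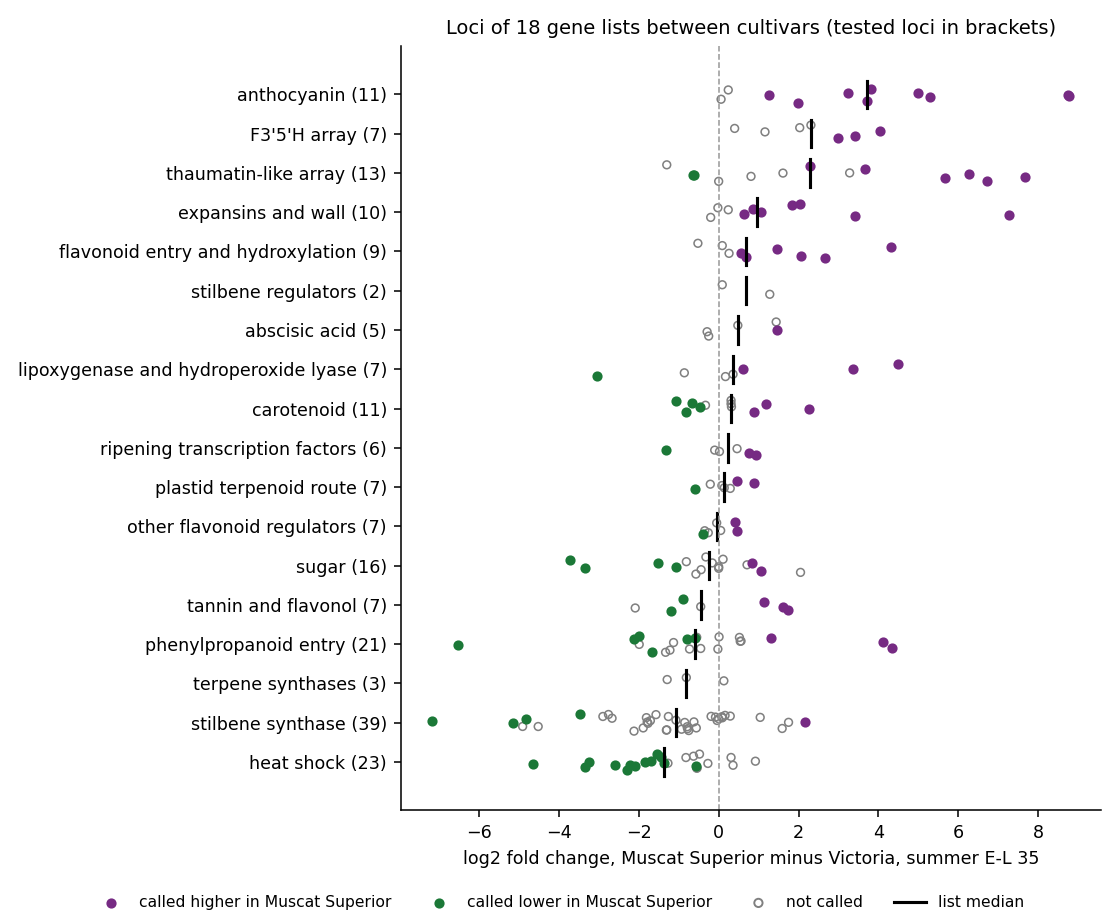
Log2 fold change (Muscat Superior minus Victoria, summer E-L 35, horizontal axis) of each tested locus in the 18 lists, ordered by list median (black bar), with called loci filled and other loci open. Anthocyanin loci all lie above 0, with a median of 3.72, and heat shock loci lie mostly below it, with a median of -1.37; fitted values of loci with no reads in a cultivar are no bound.

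The anthocyanin list, which covers late steps, transport and Myb regulators of anthocyanin formation, was higher in Muscat Superior. Of its 11 tested loci 9 were called higher and 0 lower, against 22.2% and 22.4% of all genes, and all 11 had a positive log2 fold change. The median was 3.72, beside -0.02 over all genes. Summed over the list, Victoria had 169, 164 and 174 CPM and Muscat Superior 451, 506 and 512 CPM. Every Muscat Superior library lay above every Victoria library, and the ratio of the means was 2.90. The count of 9 stayed within 1.5 times under each alternative tried. Wherever one of the 18 lists had 0 calls in a direction by edgeR, it also had 0 loci at an unadjusted p below 0.05 and 0 calls by DESeq2.

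A group of 3 loci of this list, whose identifiers share the prefix VIT_202s0033 on chromosome 2, was little read in Victoria at summer E-L 35. VIT_202s0033g00410 had 0, 0.0907 and 0 CPM in Victoria and 16, 21.3 and 21.2 CPM in Muscat Superior. Victoria held 2 reads of it in all and Muscat Superior 790, a ratio of 590 with a 95% exact counting interval of 163 to 4880 (log2 fold change 8.78 ± 0.57 SE, adjusted p = 1.95e-11). This interval, like the other counting intervals below, covers counting error in reads pooled over the 3 libraries of each cultivar. It leaves out the spread between replicates. The groups were far apart, with the locus all but unread in Victoria. It stayed so at every other stage and in both crops, with at most 0.742 CPM in any Victoria library and at least 15.8 CPM in any Muscat Superior library.

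VIT_202s0033g00390 had 2.39, 1.72 and 2.23 CPM in Victoria and 26.3, 29.8 and 33.3 CPM in Muscat Superior, a log2 fold change of 3.82 ± 0.35 (adjusted p = 2.41e-09). The third locus, VIT_202s0033g00450, had 1.29, 1.04 and 0.869 CPM against 32.0, 36.9 and 33.6 CPM, a log2 fold change of 4.98 ± 0.49 (adjusted p = 6.35e-09). Neither difference was called at summer E-L 38 or at winter E-L 35. In Victoria VIT_202s0033g00390 read 51.1, 31.4 and 23.3 CPM by summer E-L 38, where Muscat Superior had 26.4, 41.6 and 38.4 CPM and the groups overlapped. At winter E-L 35 it read 60.4, 71.9 and 105 CPM in Victoria and 73.8, 64.3 and 72.9 CPM in Muscat Superior. The summer E-L 35 difference exceeded that of winter by 3.99 ± 0.45 and that of summer E-L 38 by 3.81 ± 0.46 on the log2 scale, with adjusted p of 1.81e-06 and 2.89e-06. For VIT_202s0033g00450 the same contrasts were 4.30 ± 0.61 and 4.37 ± 0.63 (adjusted p = 2.72e-05 and 2.57e-05). None of these 3 loci had whole-number counts, so reads were shared with other loci and the split between them is uncertain.

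Elsewhere, VIT_204s0079g00690 of the same list had 1.74, 0.544 and 1.09 CPM in Victoria and 30.2, 46.4 and 54.7 CPM in Muscat Superior. Its log2 fold change was 5.28 ± 0.46 (adjusted p = 8.76e-10), and all Muscat Superior libraries stood well above the Victoria ones. VIT_201s0010g03510 had a single read in Victoria and 489 in Muscat Superior, a ratio of 731 with a counting interval of 131 to 28900. The locus of the list with the lowest p was VIT_216s0050g00910, with 5.42, 5.8 and 5.98 CPM in Victoria and 48.8, 54.4 and 60.0 CPM in Muscat Superior (3.24 ± 0.22, adjusted p = 3.54e-12). Counts were whole numbers in 4.0% of libraries with reads for VIT_201s0010g03510 and in 0% for VIT_216s0050g00910. Both therefore shared reads with other loci, and the split is uncertain. Other loci of the list had smaller differences, and 2 of the 11 were not called. VIT_202s0025g04720 had 41.1, 30.1 and 27.5 CPM against 122, 134 and 136 CPM, a log2 fold change of 1.99 ± 0.26 (adjusted p = 7.61e-07). VIT_216s0039g02230 had 18.2, 21.8 and 16.5 CPM against 41.3, 46.3 and 46.8 CPM (1.25 ± 0.17, adjusted p = 9.55e-07). For the latter the cultivar gap was smaller here than at winter E-L 35, with a summer minus winter value of -1.87 ± 0.24 (log2, adjusted p = 8.23e-06).

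The steps that feed anthocyanins were also higher in Muscat Superior where they lead into the flavonoid route. In the list of flavonoid entry and hydroxylation (chalcone synthases and isomerases, flavanone hydroxylases), 6 of 9 tested loci were called higher and 0 lower, against 22.2% and 22.4% of all genes, with a median of 0.69. Their sum was 327, 252 and 286 CPM in Victoria and 730, 792 and 723 CPM in Muscat Superior, with no overlap. The locus with the lowest p, VIT_205s0136g00260, had 26.6, 7.71 and 8.64 CPM against 266, 313 and 278 CPM, a log2 fold change of 4.32 ± 0.49 (adjusted p = 8.05e-08). VIT_214s0068g00920 had 14.4, 4.08 and 5.54 CPM against 46.0, 53.6 and 52.9 CPM (2.67 ± 0.36, adjusted p = 9.33e-07). In both loci Victoria replicate 1 was the highest of its group, and it still lay below every Muscat Superior library. The flavonoid 3',5'-hydroxylase array, whose enzymes set up the blue delphinidin-type pigments, was at low levels in both cultivars. Of its 7 tested loci 3 were called higher and 0 lower (42.9% called, near the 44.6% of all genes). None of the 7 had mostly whole-number counts. The sum of the list was 1.72 ± 1.05 CPM in Victoria and 11.6 ± 2.00 CPM in Muscat Superior. VIT_206s0009g03010 had 0.497, 0.227 and 0.652 CPM against 3.80, 4.87 and 6.08 CPM (3.42 ± 0.46, adjusted p = 7.67e-07).

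The phenylpropanoid entry list (phenylalanine ammonia-lyases and the steps that follow) had 3 of 21 loci called higher and 6 lower. Its share of called loci, 42.9%, was near the 44.6% of all genes. Its sum did not separate the cultivars, at 378 ± 61.7 CPM in Victoria and 368 ± 13.2 CPM in Muscat Superior. VIT_213s0019g04460 had 3.08, 1.31 and 2.06 CPM in Victoria and 39.6, 38.8 and 34.1 CPM in Muscat Superior (4.12 ± 0.33, adjusted p = 1.21e-10). In the other direction, VIT_202s0025g03660 had 49.7, 35.2 and 41.9 CPM in Victoria and 13.4, 13.7 and 12.3 CPM in Muscat Superior (-1.68 ± 0.27, adjusted p = 1.57e-05). The 6 lower calls became 3 without Muscat Superior replicate 3. In the list of tannin and flavonol genes 3 of 7 loci were called higher and 2 lower (71.4% called, against 44.6% of all genes). In that of other flavonoid regulators 2 of 7 were called higher and 1 lower (42.9% called, near the share of all genes). VIT_218s0001g03430 of the tannin and flavonol list had 10.3, 9.16 and 14.5 CPM against 21.8, 26.6 and 26.1 CPM (1.14 ± 0.21, adjusted p = 6.95e-05), and VIT_201s0011g02960 had 10.3, 10.4 and 6.90 CPM against 4.97, 4.5 and 5.33 CPM (-0.90 ± 0.24, adjusted p = 0.0034). Both pairs of groups were separate. Among the regulators, VIT_206s0004g00570 had 22, 15.9 and 18.5 CPM against 24.7, 26.8 and 25.3 CPM (0.45 ± 0.11, adjusted p = 0.00117), a call lost on both FPKM scales. VIT_207s0104g00090 had 39.2, 38.4 and 39.2 CPM against 27.4, 31.5 and 29.4 CPM (-0.40 ± 0.15, adjusted p = 0.0253), a call lost in 8 of 17 alternatives.

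**Figure D2:**
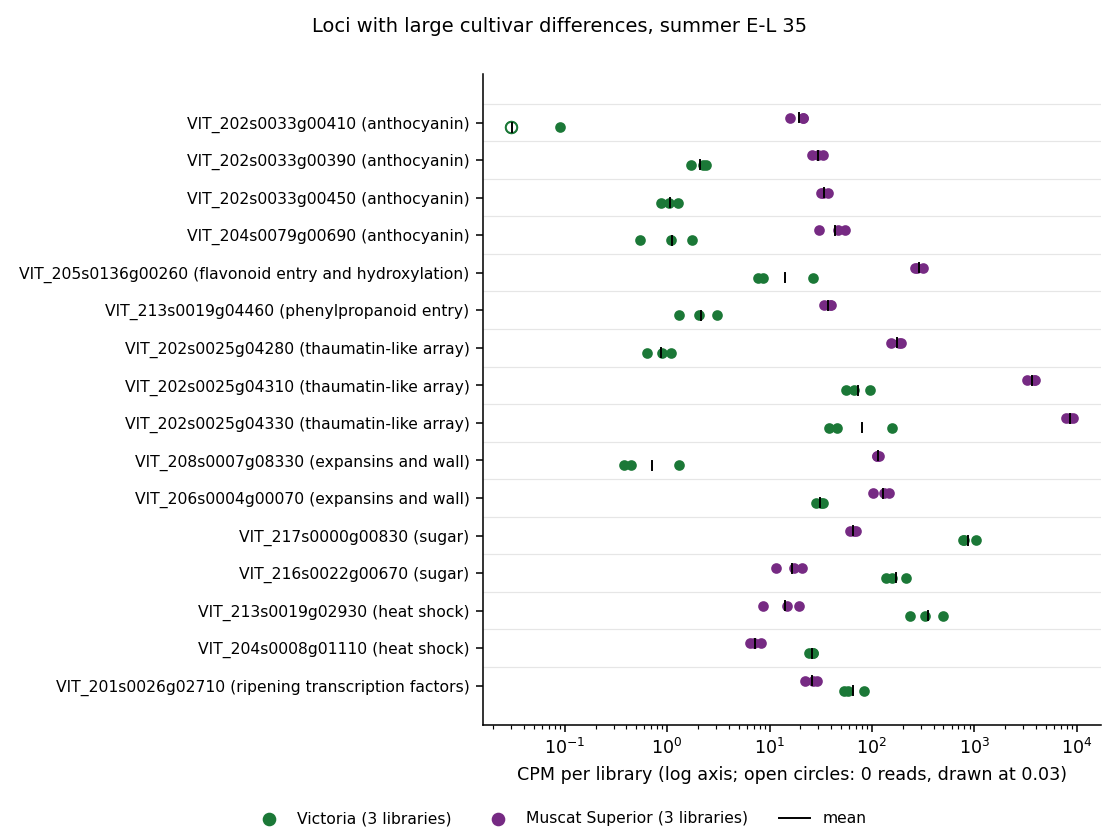
CPM of 16 loci in each of the 6 libraries (log axis), Victoria in green and Muscat Superior in purple, with group means as black bars and libraries with 0 reads drawn open at 0.03. In each of these loci, picked for large differences, the 3 libraries of one cultivar lie apart from the 3 of the other.

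Thaumatin-like proteins, small soluble defence proteins that accumulate in ripening berries, gave the widest gap of any list by summed level. The sum over the array on chromosome 2 was 236, 310 and 181 CPM in Victoria and 12500, 14000 and 14700 CPM in Muscat Superior, a ratio of 56.7. Of 13 tested loci 6 were called higher and 2 lower, against 22.2% and 22.4% of all genes. The median was 2.28, and 0.81 when 4 loci at or under the floor in one or both cultivars were set to their bound. VIT_202s0025g04330 had 38.2, 158 and 45.3 CPM in Victoria and 7790, 8680 and 9220 CPM in Muscat Superior (6.73 ± 0.79, adjusted p = 1.19e-07). It took 0.772% to 0.908% of all reads in Muscat Superior and at most 0.0187% in Victoria, where replicate 2 was the highest. VIT_202s0025g04310 had 95.4, 66.2 and 55.9 CPM against 3310, 3810 and 3940 CPM (5.67 ± 0.45, adjusted p = 1.53e-10).

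The locus of the array with the lowest p was VIT_202s0025g04280. It had 0.895, 0.635 and 1.09 CPM in Victoria and 153, 183 and 192 CPM in Muscat Superior (7.66 ± 0.43, adjusted p = 1.88e-13). Not every locus of the array was higher in Muscat Superior. VIT_202s0025g04210, elsewhere in the array, had 53.4, 45.7 and 41.5 CPM against 33.5, 29.7 and 29.2 CPM (-0.61 ± 0.18, adjusted p = 0.00741), a call that was lost without Victoria replicate 1 and against a 1.5-fold change. The lower calls of the array numbered 0 to 1 in 6 alternatives, whereas the 6 higher loci, which are direct neighbours, differed 4-fold or more. Whole-number counts were the rule in 5 of the 13 loci, so the split of reads among the others is uncertain.

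Expansins and wall-modifying genes were higher in Muscat Superior, with 7 of 10 loci called higher and 0 lower, against 22.2% and 22.4% of all genes, and a median of 0.96. Their sum was 7420, 7160 and 6580 CPM in Victoria and 11200, 11300 and 10300 CPM in Muscat Superior, without overlap. VIT_208s0007g08330 had the largest difference of the list. It stood at 0.447, 1.31 and 0.380 CPM in Victoria and at 118, 113 and 112 CPM in Muscat Superior (7.26 ± 0.75, adjusted p = 1.47e-08). By summer E-L 38 Victoria had 22.2, 11.4 and 2.29 CPM and Muscat Superior 26.8, 49.9 and 27.8 CPM, and at winter E-L 35 the values were 48.3, 63.2 and 149 CPM against 225, 225 and 234 CPM. The summer E-L 35 gap was wider than both, by 5.73 ± 0.93 (adjusted p = 8.92e-05) and 5.87 ± 0.90 (adjusted p = 6.53e-05). VIT_206s0004g00070 had 33.0, 28.4 and 31.7 CPM in Victoria and 147, 131 and 103 CPM in Muscat Superior (2.03 ± 0.44, adjusted p = 0.000543). At summer E-L 38 Victoria was the higher, at 10.5, 15.8 and 8.12 CPM against 0.784, 0.633 and 0.563 CPM.

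Sugar metabolism and transport (invertases, sucrose and hexose carriers, sucrose synthases) had no common direction, with 2 of 16 loci called higher and 4 lower (37.5% called, beside 44.6% of all genes) and a median of -0.24. The sum was 4840 ± 359 CPM in Victoria and 5640 ± 212 CPM in Muscat Superior. VIT_217s0000g00830 had 1040, 781 and 792 CPM in Victoria and 70.4, 66.2 and 61.6 CPM in Muscat Superior, a log2 fold change of -3.72 ± 0.33 (adjusted p = 8.74e-10). VIT_216s0022g00670 had 138, 157 and 217 CPM against 21.0, 17.3 and 11.6 CPM (-3.36 ± 0.47, adjusted p = 1.96e-06). Both were lower in Muscat Superior at winter E-L 35 and summer E-L 38 as well. VIT_207s0005g00750 went the other way, with 1040, 1080 and 776 CPM against 1850, 1960 and 2210 CPM (1.06 ± 0.26, adjusted p = 0.0016). VIT_218s0122g00850 had 733, 763 and 656 CPM against 1290, 1320 and 1220 CPM (0.83 ± 0.25, adjusted p = 0.00749), a call lost on both FPKM scales. In each of these loci the groups did not overlap. The 4 lower calls became 7 on both FPKM scales and when the 6 libraries were fitted alone.

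Heat shock genes, which encode chaperones and small heat shock proteins that hold unfolded proteins in solution, were lower in Muscat Superior. Of 23 tested loci 0 were called higher and 13 lower, against 22.2% and 22.4% of all genes, and 20 had a negative log2 fold change, with a median of -1.37. The sum was 1940, 1610 and 2100 CPM in Victoria and 686, 603 and 433 CPM in Muscat Superior. Every Victoria library lay above every Muscat Superior library. VIT_213s0019g02930 had 234, 332 and 498 CPM in Victoria and 19.5, 14.7 and 8.56 CPM in Muscat Superior (-4.64 ± 0.79, adjusted p = 3.18e-05). VIT_213s0019g03000 had 192, 229 and 333 CPM against 30.2, 28.5 and 15.7 CPM (-3.34 ± 0.75, adjusted p = 0.000714). VIT_204s0008g01110 varied less among replicates, with 24.3, 26.8 and 26.8 CPM against 8.19, 6.42 and 7.06 CPM (-1.84 ± 0.39, adjusted p = 0.000431).

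The 13 heat shock calls were fewer in some fits. They became 6 without Muscat Superior replicate 3 and 8 when only the 18 summer libraries were fitted. Whole-number counts were the rule in 3 of the 23 loci, so reads are shared in the rest. At summer E-L 38, with 20.4% of all genes called higher and 20.9% lower, 3 heat shock loci were called higher and 1 lower. The summer gap at E-L 35 was called more negative than that at E-L 38 in 6 loci, beside 9.6% of all genes. Within groups of the later summer stages this list spread widely, from 298 to 2350 CPM over the Victoria libraries of E-L 36 and from 265 to 1530 CPM over those of E-L 38.

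**Figure D3:**
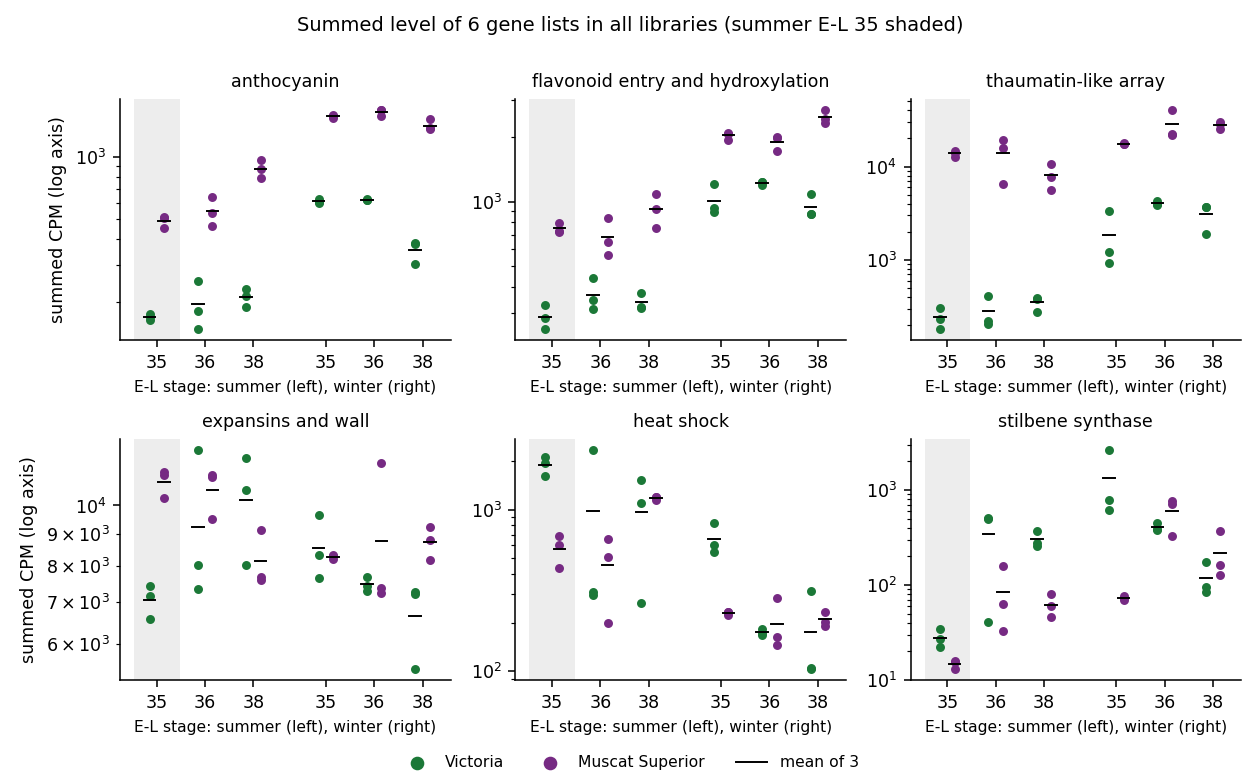
Summed CPM (log axis) of 6 lists in each library, by E-L stage within the summer crop (left) and the winter crop (right), with a black bar at the mean of 3 replicates and the summer E-L 35 libraries shaded. Anthocyanin sums were higher in Muscat Superior at every stage of both crops, while the heat shock sums, 433 to 686 CPM against 1610 to 2100 CPM at summer E-L 35, overlap between the cultivars at summer E-L 38.

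Lists for aroma, carotenoids and hormones had calls in both directions or few calls. In the plastid route to terpenoids, the source of muscat aroma compounds and of carotenoids, 2 of 7 loci were called higher and 1 lower (42.9% called, near the 44.6% of all genes), and the median of 0.14 became -0.14 and -0.15 on the FPKM scales. VIT_204s0023g00600 of this list had 295, 227 and 191 CPM in Victoria and 447, 453 and 417 CPM in Muscat Superior (0.88 ± 0.14, adjusted p = 8.49e-06). VIT_205s0020g02130 had 123, 93.0 and 99.1 CPM against 71.9, 72.4 and 65.5 CPM (-0.59 ± 0.16, adjusted p = 0.00369). In both loci the groups lay apart. The terpene synthase list summed to 1.34 ± 0.430 CPM and 0.740 ± 0.144 CPM, and 0 of its 3 tested loci were called. VIT_218s0001g04280, VIT_219s0014g02590 and VIT_212s0134g00030 had at most 0.731 CPM in any of the 6 libraries.

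The carotenoid list had 3 of 11 loci called higher and 4 lower (63.6% called, against 44.6% of all genes), counts that moved to between 1 and 6 and between 0 and 4 under the alternatives. VIT_202s0087g00930 had 38.3, 15.2 and 16.8 CPM in Victoria and 104, 118 and 113 CPM in Muscat Superior (2.25 ± 0.42, adjusted p = 8.21e-05). VIT_209s0002g00100 had 50.6, 43.6 and 40.6 CPM against 34, 30.6 and 33.4 CPM (-0.46 ± 0.11, adjusted p = 0.00164). Neither pair of groups overlapped. Abscisic acid, the hormone that promotes veraison in grape, is made from carotenoids. Of 5 tested loci in its list, only VIT_210s0003g03750 was called, with 25.1, 19.8 and 17.6 CPM against 55.1, 64.7 and 53.6 CPM (1.47 ± 0.44, adjusted p = 0.00792), and the call was lost on both FPKM scales. VIT_219s0093g00550 overlapped between cultivars, with 103, 51.7 and 64.7 CPM against 134, 107 and 64.6 CPM. The remaining 3 loci of that list, VIT_205s0051g00670, VIT_218s0001g10500 and VIT_202s0087g00710, had means of at most 2.60 CPM.

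Among 6 loci of ripening transcription factors 2 were called higher and 1 lower (50.0% called, near the 44.6% of all genes). The median of 0.24 became -0.05 and -0.04 on the FPKM scales. VIT_201s0026g02710 had 83.6, 53.9 and 57.9 CPM in Victoria and 26.7, 28.9 and 22.1 CPM in Muscat Superior (-1.33 ± 0.23, adjusted p = 4.35e-05). VIT_202s0012g01040 had 40.4, 51.8 and 41.1 CPM against 79.4, 88.6 and 88.5 CPM (0.94 ± 0.23, adjusted p = 0.00157). Both were separate between cultivars. Lipoxygenases and hydroperoxide lyases, which form leaf-alcohol volatiles from fatty acids, had 3 of 7 loci called higher and 1 lower (57.1% called). VIT_206s0004g01480 had 0.199, 0.544 and 0.489 CPM against 3.66, 4.87 and 4.43 CPM (3.36 ± 0.52, adjusted p = 6.73e-06). VIT_214s0128g00790 had 2.29, 3.35 and 3.21 CPM against 0.366, 0.148 and 0.526 CPM (-3.05 ± 0.67, adjusted p = 0.000484). The cultivars did not overlap in either locus, which held for 62.8% of all genes.

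Stilbene synthases, which make resveratrol, were barely read at this stage. The sum over the list was 34.4, 22.1 and 26.9 CPM in Victoria and 15.3, 15.8 and 13 CPM in Muscat Superior. Of 39 tested loci 1 was called higher and 4 lower (12.8% called, against 44.6% of all genes), and the median of -1.07 became -0.78 with 9 loci set to their bound. VIT_210s0042g00900 had 76 reads in Victoria and 1 in Muscat Superior, a ratio of 50.9 with a counting interval of 8.86 to 2030 (adjusted p = 1.27e-05). The higher call, VIT_216s0100g01100, was lost in 10 of 17 alternatives, and the lower calls ran from 1 on the log2(FPKM + 1) scale to 9 with DESeq2 and on the log2(FPKM + 0.1) scale. Whole-number counts were the rule in 2 of the 39 loci. At winter E-L 35, where 14.8% of all genes were called higher and 15.3% lower, 37 of the 39 were called lower in Muscat Superior. That count was 25 when the near-identical winter libraries were summed. The summer gap was called less negative than the winter gap in 5 loci, where 9.56% of all genes were called more positive in summer. These calls did not stay after that summing, which lowered the calls over all genes as well. Neither locus of the stilbene regulator list, VIT_207s0005g03340 and VIT_205s0049g01020, was called, with adjusted p of 0.0972 and 0.818.

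Over all 18 lists 53 of 204 tested loci were called higher and 39 lower, shares close to the 22.2% and 22.4% of all genes. Beyond the lists, identifiers have no name, and genes are given by what the counts show. With 0 reads in every library of one cultivar and a mean of at least 10 CPM in the other, 4 genes were read in Muscat Superior alone and 3 in Victoria alone. VIT_200s0414g00060 had 36.5, 33.3 and 39.8 CPM in Muscat Superior and was at least 245-fold higher than the Victoria floor of 3 reads per library, averaged over the group. VIT_200s0279g00100 had 97.1, 79.4 and 59.0 CPM in Victoria and was at least 354-fold lower in Muscat Superior. All 3 genes read in Victoria alone had whole-number counts in 0% of libraries with reads, and VIT_200s0414g00060 in 4.17%. Their reads were shared with other loci, so the split between loci is uncertain. The other genes read in Muscat Superior alone had whole-number counts in 100% of such libraries. With at least 10 reads in each library of one cultivar and 0 in each of the other, 21 genes were read in Muscat Superior alone and 56 in Victoria alone. How well the reads of each cultivar align to the reference was not tested.

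The gene called higher with the most reads, VIT_205s0049g00520, had 5700, 7640 and 5260 CPM in Victoria and 31800, 34700 and 33600 CPM in Muscat Superior (2.43 ± 0.22, adjusted p = 7.11e-10). It held 3.15% to 3.36% of all reads in Muscat Superior and 0.632% to 0.906% in Victoria. The gap was 0.52 ± 0.21 at summer E-L 38, where Victoria stood at 29000, 25100 and 22800 CPM and Muscat Superior at 34800, 41300 and 34100 CPM. VIT_215s0046g01560 was among the most-read genes that were lower, with 3190, 3880 and 5640 CPM against 1690, 1540 and 1170 CPM (-1.53 ± 0.48, adjusted p = 0.0109). Its call was lost against a 1.5-fold change, without Victoria replicate 3 and without Muscat Superior replicate 3. At winter E-L 35 the gene was higher in Muscat Superior (1.36 ± 0.48, adjusted p = 0.0318). The difference between crops was no longer called when near-identical winter libraries were summed (adjusted p = 0.0574).

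Some of the large differences stood side by side on the chromosomes. Runs of at least 3 neighbouring tested loci, all called and at least 4-fold different in the same direction, numbered 10 among the higher genes (33 of 525 such loci) and 15 among the lower ones (55 of 967). The thaumatin-like stretch was 1 of them. On chromosome 5, a run of 3 summed to 832, 667 and 531 CPM in Victoria and 22200, 23500 and 23600 CPM in Muscat Superior. Few of its counts were whole numbers (2.78% on average), so its loci share reads and only the sum is given. On chromosome 19, a run of 4 summed to 93.1, 87.3 and 51.1 CPM in Victoria and to 0.366, 0.443 and 0.225 CPM in Muscat Superior, and its loci were called lower in winter and at E-L 38 as well. A run of 6 on chromosome 16 had 87.0, 86.4 and 135 CPM in Victoria and 8.41, 8.27 and 9.76 CPM in Muscat Superior. At winter E-L 35 its log2 fold changes ran from -0.58 to 2.26, and the difference between crops was called in 5 of the 6, or in 4 after the near-identical winter libraries were summed. In the runs on chromosomes 16 and 19 few counts were whole numbers as well. The split of reads among their loci, and so the values and calls of single loci there, is uncertain. By chromosome the share of called genes lay between 41.8% and 49.5%, and it was 40.0% for genes on unplaced sequence.

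The same contrast between cultivars was made over all genes at winter E-L 35 and at summer E-L 38, which share no library with the summer E-L 35 comparison, although all 36 libraries share 1 fit. At winter E-L 35, 5940 genes (30.1%) were called between the cultivars, or 2448 when near-identical winter libraries were summed. At summer E-L 38, 8156 (41.3%) were called. Of the 4387 genes higher in Muscat Superior, 1653 (37.7%, or 56.6% of the 2922 higher in winter) were also higher at winter E-L 35 and 146 were lower there. Of the 4419 lower genes, 1695 (38.4%, or 56.2% of the 3018 lower in winter) were also lower and 166 were higher. With summer E-L 38 the shared genes numbered 2088 higher (47.6% and 51.9%) and 2154 lower (48.7% and 52.1%). Genes called the same way in all 3 comparisons numbered 1236 higher and 1308 lower. Across 19736 genes, which are not independent replicates, the log2 fold changes had a Pearson correlation of 0.60 with winter E-L 35 and 0.64 with summer E-L 38, and all were fitted with the same scaling.

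The cultivar gap differed between the crops at E-L 35 in 3567 genes (18.1%), 1887 more positive in summer (9.56%) and 1680 more negative (8.51%). The winter Muscat Superior replicates at this stage differed by little more than counting noise, with a chi-square per degree of freedom of 1.47 to 1.92, against 2.51 to 7 among the summer ones. Summing them, and other such winter libraries, into 1 left 935 genes, 446 more positive and 489 more negative. Between summer E-L 35 and summer E-L 38 the gap differed in 4225 genes (21.4%), 2330 (11.8%) more positive and 1895 (9.6%) more negative at E-L 35. Crop goes together with season, sampling date and pruning, which cannot be told apart.

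List counts in the other 2 comparisons are to be read beside all genes, of which 14.8% were called higher and 15.3% lower at winter E-L 35, and 20.4% and 20.9% at summer E-L 38. Anthocyanin loci were called higher in 7 of 11 at winter E-L 35 and in 7 of 11 at summer E-L 38. Of the expansin and wall list, 1 of 10 was called higher in winter, near the share of all genes. At summer E-L 38, 2 of its loci were called higher and 2 lower. In 4 of its loci the E-L 35 gap was called more positive in summer than in winter, 2 after the summing. Thaumatin-like loci were called higher in 6 of 13 in winter and in 8 of 13 at E-L 38. For flavonoid 3',5'-hydroxylases the counts were 3 and 6 of 7. Heat shock loci were called lower in 6 of 23 at winter E-L 35, and in 0 after the summing. That summing also lowered the winter calls over all genes from 5940 to 2448. The heat shock median at winter E-L 35 was -1.46, beside -1.37 in summer. Its winter sums were 826, 544 and 601 CPM in Victoria and 234, 224 and 232 CPM in Muscat Superior, without overlap.

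**Figure D4:**
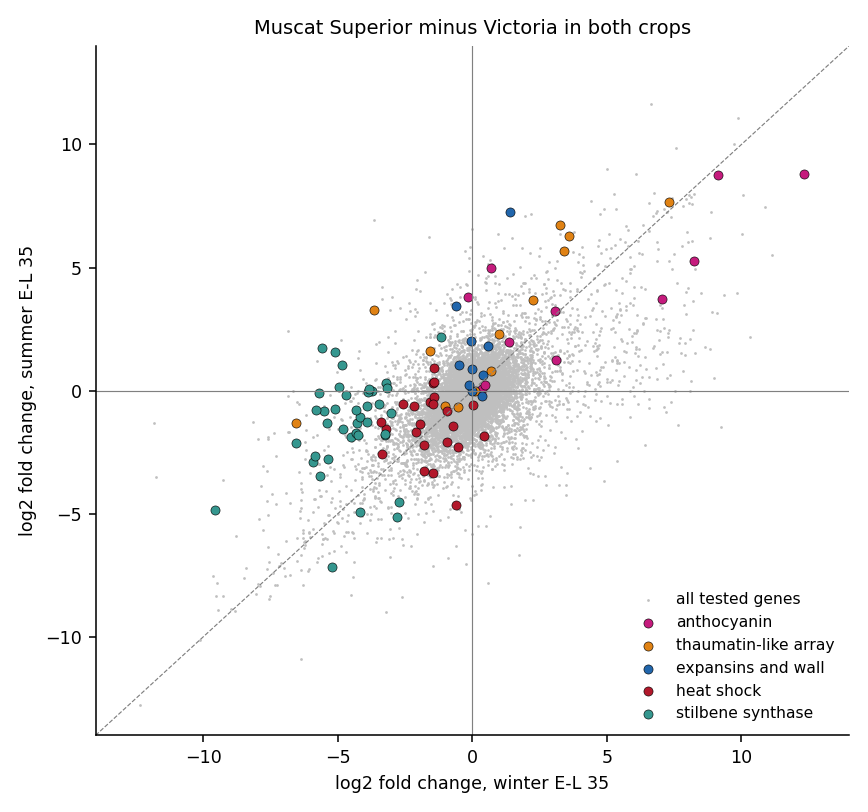
Log2 fold change between the cultivars at summer E-L 35 (vertical axis) against winter E-L 35 (horizontal axis) for 19736 tested genes in grey, with 5 lists coloured and the dashed line at equal change. Stilbene synthase loci lie far to the left, with a winter median of -4.33 beside -1.07 in summer, and 8 of 10 wall loci lie above 0 in summer, with a winter median of -0.01.

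Whether the cultivars stood at the same point of ripening at this nominal stage was looked at through genes that moved during winter ripening. They were taken from libraries outside the summer comparison, as those called in the same direction and at least 2-fold between E-L 35 and E-L 38 in winter berries of both cultivars. The 689 rising genes had a median log2 fold change between cultivars of 0.17, with 29.0% called higher in Muscat Superior and 13.5% lower, against 22.2% and 22.4% of all genes. The 1883 falling genes had a median of -0.44, with 14.3% called higher and 40.8% lower. Relative to the mean of the Victoria libraries, the falling set stood at 0.01, -0.05 and 0.04 in Victoria and at -0.36, -0.38 and -0.46 in Muscat Superior as a median. The rising set stood at 0.05, -0.02 and -0.03 in Victoria and at 0.10, 0.12 and 0.16 in Muscat Superior. Both sets were separate by library, the falling set more widely. On the FPKM scales the median of the rising set was -0.04 and -0.08, while that of all genes was -0.23 and -0.29, which left the set 0.19 and 0.21 above all genes, beside 0.19 on the count scale. The corresponding values of the falling set were -0.32, -0.40 and -0.42. At winter E-L 35, 164 of the 689 rising genes were called higher in Muscat Superior and 65 lower. Of the 1883 falling genes, 217 were called higher there and 404 lower, beside 14.8% and 15.3% of all genes. Those winter libraries were also used to choose the sets.

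**Figure D5:**
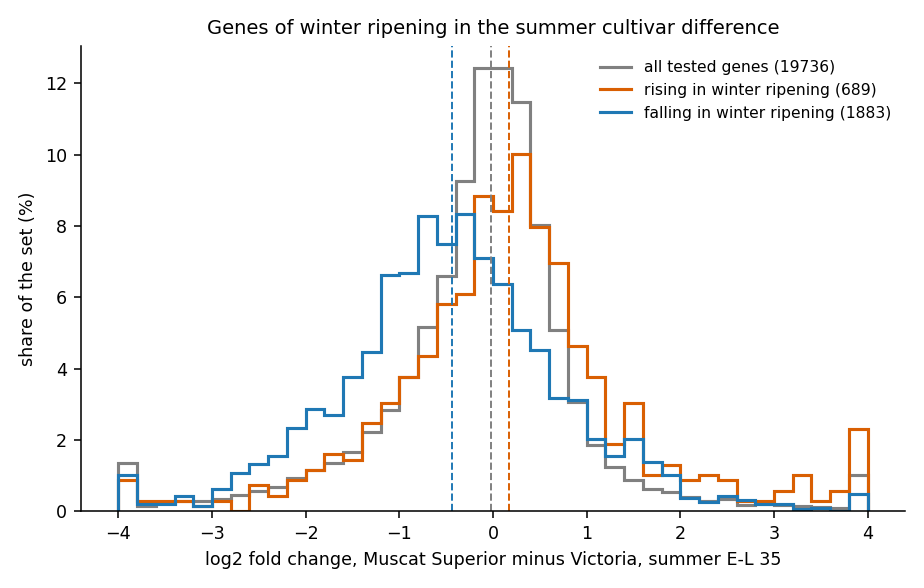
Distribution of the log2 fold change between the cultivars at summer E-L 35 (horizontal axis, values beyond 4 drawn in the end bins) as a share of each set, for all tested genes, 689 genes rising and 1883 genes falling in winter ripening, with dashed lines at the medians. The falling set is shifted to the left, with its median at -0.44, and the rising set slightly to the right, at 0.17.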

How the data were processed

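Per the file headers, the authors deposited for each library a table of expected counts (estimated reads per gene, with fractions where reads are shared), FPKM and transcript length. The labels name Bowtie, without a version. The annotation release, build and counter were not given in the sources used here. Missing lines were set to 0. The deposited FPKM equalled the expected count scaled by length and library total, at a median ratio of 1.0.

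Expected counts were rounded and tested by edgeR 4.0.16 in R 4.3.3 (robust quasi-likelihood test, TMM, filterByExpr) in a means model of 12 groups and 36 libraries, with 24 residual degrees of freedom and a common coefficient of biological variation of 0.172. All groups entered so that they share 1 estimate of the spread. Adjusted p-values are Benjamini-Hochberg over 19736 genes. SE is the size of the log2 fold change divided by the square root of F. Alternatives were DESeq2 1.42.0, RLE size factors, no filter, limma 3.58.1 on log2(FPKM + 1) and log2(FPKM + 0.1), a test against 1.5-fold, fewer libraries, a replicate block and each replicate left out. The scripts were tested on simulated data.

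Members and lists were chosen with earlier results of these data known. Named loci are the lowest p in each direction of each list, all loci of lists with at most 5 tested loci, and at most 2 identifiers per direction in no list; 18 further loci were chosen after their values were seen. The supplied gene table, of another assembly, matched 0 of the 28119 identifiers. Of 39 loci whose recalled gene has a symbol there, 38 stood on the same chromosome, a check built after that table was seen. Lists planned by gene description, tissue markers among them, could not be built.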

Additional observations from a re-analysis of the deposited data

Results flagged for a closer look

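Each locus below had a cultivar difference at summer E-L 35 that differed, by edgeR's test of the difference itself, from that at winter E-L 35 or from that at summer E-L 38. Values are log2 differences of the cultivar gap, summer E-L 35 minus the other group, with adjusted p over all genes. Of 20 such results between crops 5 stayed called when the near-identical winter libraries were summed, and of 22 between stages 17 did. The causes were not tested.

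Between crops, the results that stayed called were VIT_208s0007g08330 at 5.87 (wall list), VIT_202s0033g00450 at 4.30, VIT_202s0033g00390 at 3.99 and VIT_216s0039g02230 at -1.87 (anthocyanin list), and VIT_214s0068g00920 at 2.55 (flavonoid entry). Their adjusted p ran from 1.81e-06 to 0.000505.

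The other differences between crops were no longer called after the summing. They were more positive in summer in VIT_202s0025g04330 (3.49), VIT_202s0025g04300 (2.68) and VIT_202s0025g04310 (2.25) of the thaumatin-like array, in VIT_216s0100g01100 (3.34, stilbene synthase), VIT_202s0087g00930 (2.46, carotenoid), VIT_206s0004g00070 (2.08, wall), VIT_204s0023g00600 (0.91, terpenoid route) and VIT_205s0049g00520 (1.37, no list). More negative were VIT_213s0019g02930 (-4.03) and VIT_204s0008g01110 (-2.28) of the heat shock list, VIT_204s0079g00690 (-2.97, anthocyanin), VIT_215s0046g01560 (-2.90, no list), VIT_217s0000g00830 (-1.41, sugar), VIT_201s0011g02960 (-1.35, tannin and flavonol) and VIT_207s0104g00090 (-0.64, regulators).

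Between summer stages, the gap was more positive at E-L 35 in VIT_206s0004g00070 (6.12) and VIT_208s0007g08330 (5.73) of the wall list. In the anthocyanin list it was so in VIT_202s0033g00450 (4.37), VIT_201s0010g03510 (3.89) and VIT_202s0033g00390 (3.81). The thaumatin-like VIT_202s0025g04300 (2.21) and VIT_202s0025g04310 (1.82) followed, with VIT_205s0049g00520 (1.91), VIT_218s0122g00850 (1.44), VIT_201s0026g02710 (1.39), VIT_207s0005g00750 (1.07), VIT_205s0020g02130 (0.86), VIT_204s0023g00600 (0.68) and VIT_206s0004g00570 (0.42). VIT_218s0001g10500 gave 7.55, which is no bound, since the locus had 0 reads in Muscat Superior at E-L 38 and at most 0.591 CPM at E-L 35.

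More negative at E-L 35 than at E-L 38 were VIT_213s0019g02930 (-4.12) and VIT_213s0019g03000 (-2.79) of the heat shock list, VIT_206s0009g03010 (-3.69, flavonoid 3',5'-hydroxylase), VIT_218s0001g03430 (-2.79) and VIT_201s0011g02960 (-1.07) of the tannin and flavonol list, VIT_216s0039g02230 (-1.59) and VIT_202s0025g03660 (-1.20, phenylpropanoid entry).

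Of these results between stages, 5 were no longer called after the summing, in VIT_207s0005g00750 (adjusted p = 0.0723), VIT_206s0004g00570 (0.0805), VIT_213s0019g03000 (0.0895), VIT_201s0011g02960 (0.0599) and VIT_202s0025g03660 (0.0644).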

How the results depend on the processing

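Counts of called genes between the cultivars at summer E-L 35 stayed within 1.5 times under DESeq2 (9086), RLE size factors (8801), no filter (8617), the 6 libraries alone (10476), the 18 summer libraries (7701), near-identical winter libraries summed (8145), each replicate left out (7525 to 7976) and, chosen after seeing the data, without replicate 1 of both summer E-L 36 groups (9911). Against a 1.5-fold change 3214 were called, 1264 higher and 1950 lower. On log2(FPKM + 1) and log2(FPKM + 0.1), 2088 and 2048 were higher, and 7234 and 6729 lower.

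For summer minus winter, summing the near-identical libraries left 935 genes, 446 higher and 489 lower, by fewer winter libraries. The FPKM scales gave 1060 and 849 higher, and 3247 lower with a pseudocount of 1. Leaving out a replicate gave 2681 to 3465. For E-L 35 minus E-L 38 the FPKM scales gave 1068 and 997 higher, and 4289 and 3598 lower. Leaving out a replicate gave 3322 to 4249.

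The rising set had a median of -0.04 and -0.08 on the FPKM scales, with 105 and 122 called higher, and 143 lower with a pseudocount of 0.1. Leaving out a replicate gave 0.16 to 0.24, the latter without Victoria replicate 1. The falling set had a median of -0.23 with no fold minimum and -0.55 and -0.69 on the FPKM scales, with 176 and 160 called higher. Leaving out a replicate gave -0.47 to -0.40.

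Of 47 called named loci 35 stayed called in all 17 settings. Uncalled loci changed sign: VIT_205s0049g01020 (-0.17 and -0.18 on the FPKM scales, -0.03 to 0.30 with a replicate left out, lowest without Victoria replicate 2), VIT_218s0001g04280 (-0.04 and -0.10, then -0.26 to 0.58, with -0.20 and -0.26 without replicate 1 of Victoria and of Muscat Superior) and VIT_205s0051g00670 (0.03 with a pseudocount of 0.1, -0.84 to 1.94 with a replicate left out, highest without Victoria replicate 1). The cause was not tested.

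With the replicate block 8729 genes were called, 8651 of them shared. Replicate numbers did not pair the samples: same-numbered libraries had correlations of -0.04, -0.05 and -0.12 of their deviations. Loci under about 0.2 CPM cannot be compared at this depth, so missing calls there are not absence.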
